A study of Rattus norvegicus with 24 samples.

Results

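The genes followed here are Ppp1r1b, Ptpn5, Gnal, Adcy5, Gng7, Rgs9, Arpp21, Rasd2 and Rasgrp2, 9 genes whose proteins carry or limit the dopamine signal inside striatal projection neurons. They were taken by name from the 32883 genes of the deposited tables, and all 9 were among the 13999 genes tested, each above the filter on low values in all 23 libraries. The RNA came from primary neurons of the neonatal rat striatum, treated on day 7 in culture and sequenced as stranded total RNA after removal of ribosomal RNA. Every group received the vehicle DMSO alone or an agent: SKF, an agonist of the D1 dopamine receptor, JQ1, an inhibitor of the BET family of bromodomain proteins, which bind acetylated histones, or the bromodomain inhibitor iBD2. Experiment 1 held DMSO, SKF, JQ1, and SKF plus JQ1 at 60 min, experiment 2 held DMSO, SKF, iBD2, and SKF plus iBD2 at 60 min, and experiment 3 held DMSO, SKF, JQ1, and SKF plus JQ1 at 24 h. Each of the 12 groups has 2 libraries, except that 1 library of SKF plus iBD2 was analysed. The labels give no doses. They also do not state separate cultures for the libraries within a group, and the p-values rest on the spread between these libraries alone, which could be technical. The cultures were mixed: neuronal markers such as Map2 were abundant, astrocyte and microglial markers were present, and 8 of the 9 endothelial and mural markers in the tables stayed under the filter in every library.

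Dopamine reaches 2 main kinds of striatal projection neuron. In those with the D1 receptor, a stimulatory G protein raises cyclic AMP and activates protein kinase A, while the D2 receptor lowers cyclic AMP through inhibitory G proteins. Protein kinase A then changes the phosphorylation of many proteins, among them inhibitors of phosphatases, and the pathway meets calcium, Rap and ERK kinase signalling. In the striatum several steps use subunits or isoforms that are much more abundant there than in most other brain regions, and the 9 genes encode such proteins.

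Levels are given as scaled FPKM, the authors' measure of fragments relative to transcript length and library size, summed over the transcripts of a gene and divided by a size factor per library (0.943 to 1.06). Gnal, which encodes the G protein alpha subunit Golf that links D1 and adenosine receptors to adenylyl cyclase, had the highest level, 194 ± 12.5 FPKM over the 6 DMSO libraries (SD), above 98.6% of the genes tested. Gng7, a G protein gamma subunit that assembles with Golf, followed at 137 ± 14.3 FPKM. Arpp21, a substrate of protein kinase A that binds calmodulin in its short form, had 127 ± 9.54 FPKM. The DMSO libraries of Gnal lay above all those of Gng7, whereas those of Gng7 and Arpp21 overlapped.

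Ppp1r1b, which encodes DARPP-32, an inhibitor of protein phosphatase 1 once protein kinase A has phosphorylated it, had 94.0 ± 32.0 FPKM and overlapped Arpp21. Adcy5, the main adenylyl cyclase of the striatum, had 32.4 ± 3.72 FPKM, below Ppp1r1b and above Ptpn5 without overlap. Ptpn5, the striatal-enriched tyrosine phosphatase STEP, which dephosphorylates ERK kinases, had 21.8 ± 1.63 FPKM. The 3 remaining genes were lower, and each overlapped its neighbours in the order.

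Rasd2, which encodes the small GTPase Rhes, had 15.2 ± 2.99 FPKM. Rasgrp2, a calcium- and diacylglycerol-regulated exchange factor for Rap, had 10.7 ± 1.2 FPKM. Rgs9, which shortens signalling by inhibitory G proteins by speeding GTP hydrolysis, had 9.40 ± 0.840 FPKM, still above 56.5% of the genes tested. In the build Rnor_6.0 used by the files, Ptpn5 spans chromosome 1 from 103197915 to 103256823, Rasgrp2 chromosome 1 from 221773254 to 221788765, Rgs9 chromosome 10 from 97509971 to 97582188, Gng7 chromosome 7 from 11582984 to 11628929, and Arpp21 chromosome 8 from 120323897 to 120446507. Ppp1r1b spans chromosome 10 from 86303727 to 86312762, Gnal chromosome 18 from 62805410 to 62944630, Adcy5 chromosome 11 from 68695839 to 68842320, and Rasd2 chromosome 19 from 14653198 to 14663914.

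The spread of Ppp1r1b came from a difference between experiments. Its DMSO libraries had 80.7 and 68.1 FPKM in experiment 1, 139 and 131 in experiment 2, and 69.7 and 75.6 in experiment 3. The mean of experiment 2 was 1.81 times that of experiment 1. Every library of experiment 2, treated or not, lay between 131 and 139 FPKM, and no library of the other experiments exceeded 82.5. Rasd2 and Adcy5 were also higher in the DMSO libraries of experiment 2, at 1.37 and 1.21 times experiment 1, while Rgs9 stood at 0.865 times. The summed level of 10 astrocyte markers was 138 to 146 FPKM in DMSO of experiment 2, against 387 to 429 in experiment 1 and 416 to 500 in experiment 3, and that of 10 microglial markers was 26.9 to 31.5 FPKM against 50.4 to 58.0 and 47.4 to 59.3. Their part in the levels of Ppp1r1b, Rasd2 and Adcy5 was not tested, and no test was made between DMSO groups of different experiments. In such bulk samples, fewer cells of a type and less RNA per cell cannot be told apart.

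**Figure D1:**
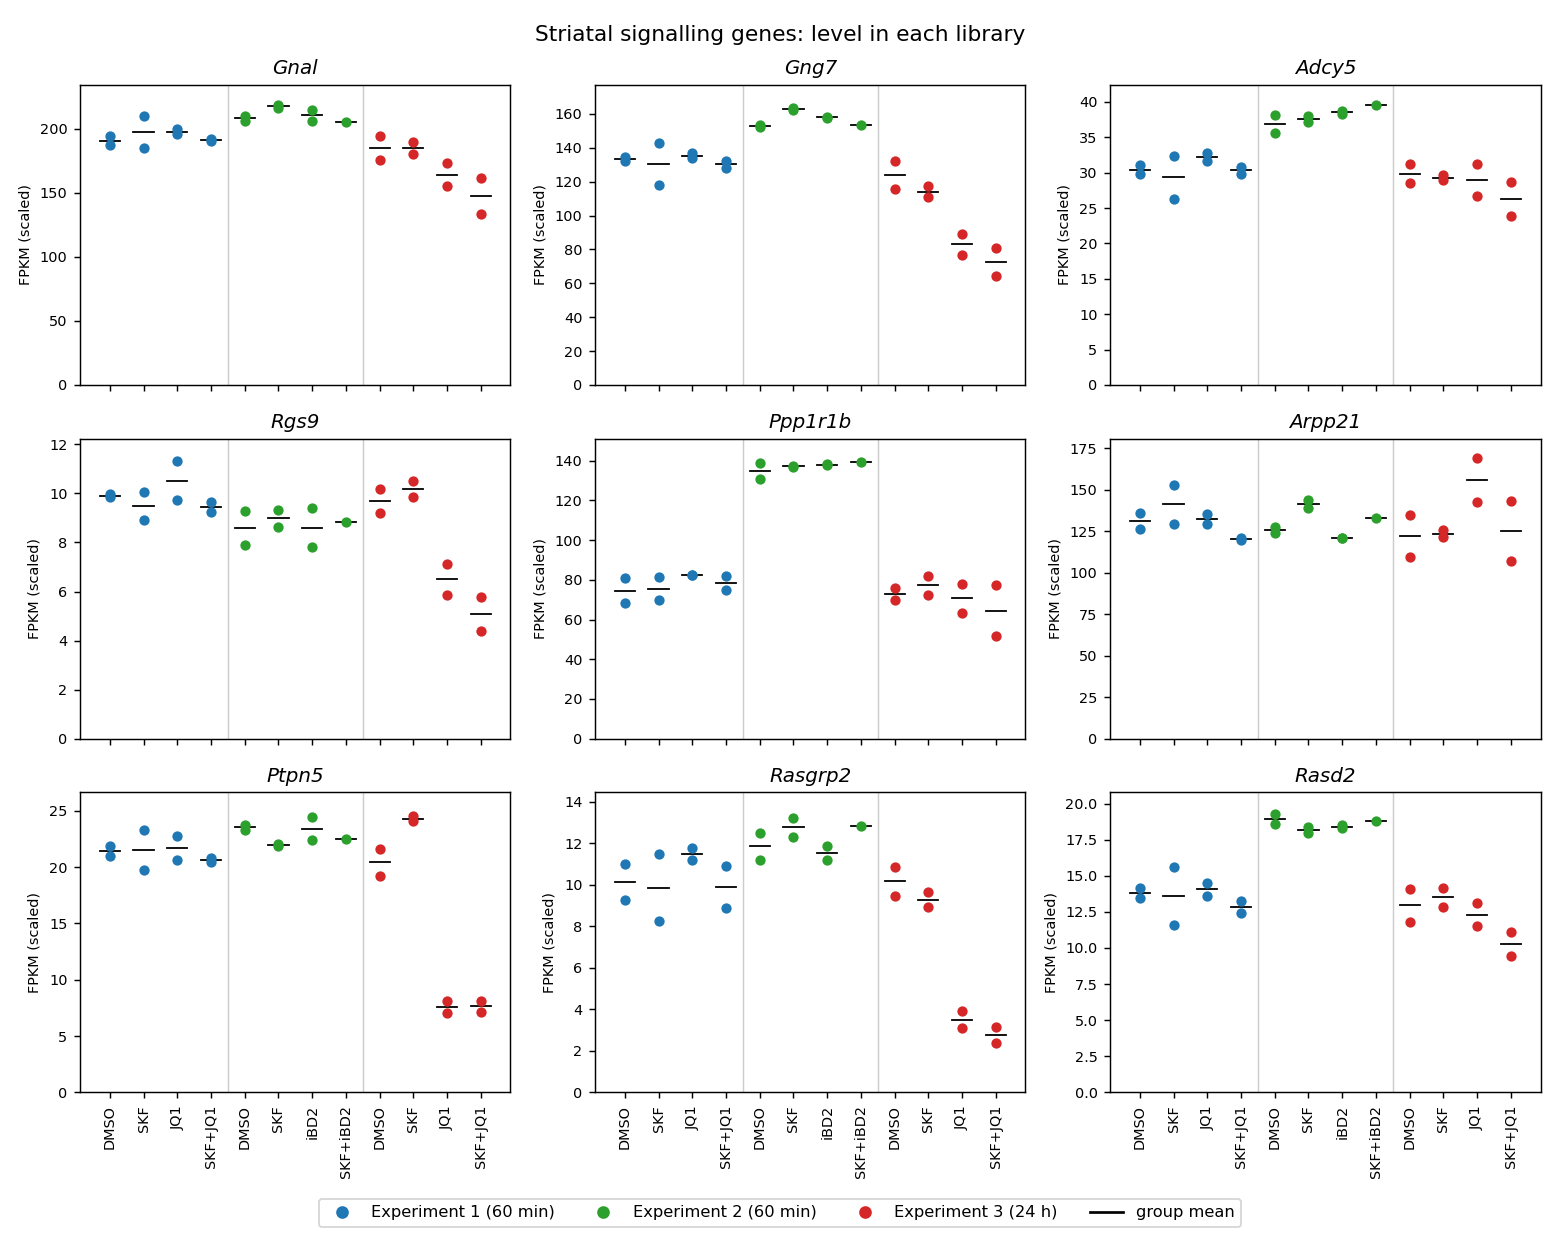
Scaled FPKM (vertical axes, from 0) of the 9 genes in each of the 23 libraries (points), by group along the horizontal axis, with group means as lines and experiments by colour. Ptpn5 and Rasgrp2 drop in the JQ1 and SKF plus JQ1 groups at 24 h, and Ppp1r1b stands at 131 to 139 FPKM in experiment 2.

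The first question was whether D1 receptor stimulation for 60 min changed these genes. None of the 9 passed an adjusted p under 0.05 in limma, the call used throughout. In experiment 1 the log2 fold changes ran from −0.06 for Rgs9 to 0.10 for Arpp21, beside 1.71% of all tested genes called. In experiment 2 they ran from −0.10 for Ptpn5 to 0.17 for Arpp21, beside 2.32% called. Averaged over both experiments, where 3.98% of genes were called, the 95% confidence intervals of the 9 lay within −0.21 and 0.31. At an unadjusted p under 0.05 the count was 0 in each of these 3 comparisons, and limma voom on estimated fragments also called 0. When experiment 2 was fitted alone, Arpp21 was called: its SKF libraries had 144 and 139 FPKM and its DMSO libraries 128 and 124, without overlap (log2 fold change 0.17 ± 0.03, adjusted p = 0.0392). In experiment 1 the SKF libraries of Arpp21 had 129 and 153 FPKM and overlapped the DMSO libraries, which had 127 and 136.

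Partners in the pathway were read over the same hour. Of 80 tested genes on 5 lists of pathway partners (receptors, G proteins with their chaperones and RGS proteins, adenylyl cyclases and phosphodiesterases, protein kinase A with kinases and phosphatases that act on DARPP-32, and the Ras, Rap and ERK arm), 4 were called higher over both experiments and 0 lower. That share of the list is near the 3.98% of all genes. The 4 were the phosphodiesterase gene Pde4d (0.37 ± 0.04), Rasd1, the close relative of Rasd2 (0.66 ± 0.08), the receptor gene Drd1 (0.53 ± 0.07) and the RGS gene Rgs2 (0.63 ± 0.08). The median of the 80 was 0.03, against 0.003 for all genes tested. Rasd2 itself had −0.05 ± 0.08. Rasd1 was a low gene, with 1.15 FPKM in DMSO and 2.49 FPKM in SKF of experiment 1.

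Bromodomain inhibition for 60 min also gave 0 calls among the 9. With JQ1 alone their log2 fold changes ran from 0.01 for Arpp21 to 0.17 for Rasgrp2, beside 4.4% of all genes called. With JQ1 added to SKF they ran from −0.23 for Arpp21 to 0.05 for Ppp1r1b, beside 6.54%. For Arpp21 the SKF plus JQ1 libraries had 121 and 119 FPKM, below both SKF libraries, but the adjusted p was 0.351. With iBD2 the range was −0.06 for Arpp21 to 0.06 for Adcy5, beside 0.171% called, and with iBD2 added to SKF, where 1 library stands against 2, −0.09 for Arpp21 to 0.08 for Adcy5, beside 0.0214%. At an unadjusted p under 0.05 the count was 0 in each of these 4 comparisons, and limma voom also called 0.

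JQ1 and iBD2 were compared through the difference of their effects at 60 min, each relative to DMSO of its own experiment. The labels give no dose for either, so the doses cannot be matched, and the inhibitor and the experiment cannot be told apart. The difference for the 9 genes ran from −0.03 for Gng7 to 0.21 for Rasgrp2, with 95% confidence intervals within −0.32 and 0.66. None was called and none had an unadjusted p under 0.05, where 0.907% of all genes were called, and limma voom called 0 as well. Among the pathway partners, 4 of 80 were called lower and 0 higher with JQ1 at 60 min, and 7 lower and 1 higher with JQ1 added to SKF. The shares of all genes called were 4.4% and 6.54%, so the first count is near the background. Receptor genes made up 3 of the 4 with JQ1 alone, Gpr52 (6.14 to 2.81 FPKM, −1.01 ± 0.09), Drd1 (11.3 to 5.38 FPKM, −1.01 ± 0.09) and Gpr6 (23.1 to 13.2 FPKM, −0.78 ± 0.13), and the other was Rasd1 (−0.53 ± 0.12). None of the 80 was called with iBD2. For 2 partners the JQ1 effect was below the iBD2 effect by the test of the difference itself, Gpr52 at −0.84 ± 0.13 (adjusted p = 0.00181) and Drd1 at −0.81 ± 0.13 (adjusted p = 0.00418).

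After 24 h of JQ1, 5 of the 9 genes were called, 4 lower and Arpp21 higher. That count is near the background: 56.7% of all tested genes were called in this comparison, 28.6% lower and 28.1% higher. The median of the 9 was −0.17, against 0.007 for all genes. The libraries of the groups did not overlap for 6 of the 9, beside 77.1% of all genes. By the size of the change, Ptpn5 and Rasgrp2 lay near the low end of all genes.

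Ptpn5 had 19.3 and 21.6 FPKM in DMSO and 7.06 and 8.14 FPKM in JQ1. Both JQ1 libraries lay far below both DMSO libraries, and the mean was 37.2% of that of DMSO. Its log2 fold change of −1.37 ± 0.08 (adjusted p = 8.7e-10) was the 182nd lowest of 13999. Rasgrp2 had 9.44 and 10.9 FPKM in DMSO and 3.09 and 3.91 FPKM in JQ1, 34.4% of the DMSO mean. On the log2 scale it fell by 1.42 ± 0.15, the 161st lowest change (adjusted p = 8.29e-07).

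Of the G protein arm, Gng7 and Rgs9 fell by about the same proportion. Gng7 had 115 and 132 FPKM in DMSO and 77 and 89 FPKM in JQ1 (−0.58 ± 0.10, adjusted p = 0.000119). Rgs9 had 9.21 and 10.2 FPKM in DMSO and 5.87 and 7.13 FPKM in JQ1 (−0.55 ± 0.12, adjusted p = 0.00104). Both stood at 67.0% of DMSO, without overlap. The alpha subunit gene Gnal had 176 and 195 FPKM in DMSO and 155 and 173 FPKM in JQ1, and its −0.17 ± 0.08 missed the threshold (adjusted p = 0.0677). Gnal was called without DMSO replicate 5 (−0.25, adjusted p = 0.0355), without JQ1 replicate 6 (−0.25, adjusted p = 0.0351) and, with the fold change at −0.17, without either SKF plus JQ1 library (adjusted p = 0.0278 each). It was also called on FPKM as deposited, without the size factor (−0.27, adjusted p = 0.00372). The cyclase gene Adcy5 had 28.5 and 31.2 FPKM in DMSO and 26.6 and 31.3 FPKM in JQ1, with overlap (−0.05, 95% confidence interval −0.24 to 0.15).

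Of the protein kinase A substrates, Arpp21 was called higher and Ppp1r1b was not called. Arpp21 had 110 and 135 FPKM in DMSO and 143 and 169 FPKM in JQ1, a rise of 0.35 ± 0.12 (adjusted p = 0.0178) with no overlap. The call rested on single libraries: it was lost without DMSO replicate 5, at 0.21 (adjusted p = 0.215), and without JQ1 replicate 6, at 0.23 (adjusted p = 0.182). It was also lost with no filter on low values (adjusted p = 0.0504) and in a fit of experiment 3 alone (adjusted p = 0.0782). Ppp1r1b had 69.7 and 75.6 FPKM in DMSO and 63.1 and 78.1 FPKM in JQ1, and its −0.05 had a 95% confidence interval of −0.36 to 0.26. Rasd2 likewise overlapped, with 11.8 and 14.1 FPKM in DMSO and 11.5 and 13.1 FPKM in JQ1 (−0.07, interval −0.30 to 0.17).

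The comparison was repeated in the presence of SKF, with separate libraries. SKF plus JQ1 against SKF at 24 h gave 6 of 9 calls, all lower, beside 56.4% of all genes called with 28.7% lower and 27.7% higher. The median of the 9 was −0.38, against 0.0006 for all genes, and 7 of the 9 did not overlap, beside 78.4% of all genes. Ptpn5 had 24.1 and 24.5 FPKM in SKF and 7.16 and 8.12 FPKM in SKF plus JQ1 (−1.61 ± 0.08, adjusted p = 1.6e-10, the 74th lowest). Rasgrp2 had 9.64 and 8.91 FPKM in SKF and 2.37 and 3.15 FPKM in SKF plus JQ1 (−1.60 ± 0.15, adjusted p = 2.24e-07, the 77th lowest). These genes again took the lowest places among the 9, at 31.4% and 29.7% of SKF.

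Rgs9 had 9.85 and 10.5 FPKM in SKF and 4.40 and 5.78 FPKM in SKF plus JQ1, with no overlap (−0.95 ± 0.12, adjusted p = 5.38e-06). Gng7 had 111 and 118 FPKM in SKF and 64.1 and 81.0 FPKM in SKF plus JQ1 (−0.66 ± 0.10, adjusted p = 3.08e-05). Gnal fell here as well, from 180 and 189 FPKM to 133 and 161 FPKM (−0.33 ± 0.08, adjusted p = 0.00155). Without SKF plus JQ1 replicate 5 the value for Gnal was −0.20 (adjusted p = 0.0455). Rasd2 had 14.2 and 12.8 FPKM in SKF and 9.45 and 11.1 FPKM in SKF plus JQ1 (−0.38 ± 0.11, adjusted p = 0.00788). That call was lost without SKF replicate 5, at −0.31 (adjusted p = 0.0756), and without SKF plus JQ1 replicate 5, at −0.27 (adjusted p = 0.1).

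The other 3 genes were not called. Arpp21 had 126 and 122 FPKM in SKF and 107 and 143 FPKM in SKF plus JQ1, so that the treated libraries lay on either side of the SKF libraries (0.001, interval −0.25 to 0.25). Ppp1r1b had 72.5 and 81.8 FPKM in SKF and 51.7 and 77.2 FPKM in SKF plus JQ1 (−0.28, adjusted p = 0.111). Without SKF plus JQ1 replicate 5 its value was 0.003, and without replicate 6 it was −0.57 (adjusted p = 0.00121), so the 2 libraries give different answers. Adcy5 had 28.9 and 29.7 FPKM in SKF and 23.8 and 28.7 FPKM in SKF plus JQ1 (−0.16, adjusted p = 0.156); without SKF plus JQ1 replicate 6 it was called (−0.29, adjusted p = 0.024), and so it was on FPKM as deposited (−0.23, adjusted p = 0.0317). On FPKM as deposited Ppp1r1b was also called (−0.35, adjusted p = 0.0493).

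For 8 of the 9 genes SKF plus JQ1 replicate 5 held the lowest value of all 23 libraries, Ptpn5 being the exception. The share of all genes with their lowest value in that library is not given here. Over all genes, the log2 difference between both SKF plus JQ1 libraries at 24 h had an SD of 0.2211. In the other groups of 2 libraries this SD was 0.1672 to 0.2185. Without SKF plus JQ1 replicate 5, the log2 fold changes with JQ1 added to SKF were −0.27 for Rasd2 and 0.003 for Ppp1r1b. With all libraries they were −0.38 and −0.28. The summed level of 12 neuronal markers was 2056 FPKM in that library, 2315 in SKF plus JQ1 replicate 6, 2261 and 2384 in JQ1, 2329 and 2597 in DMSO, and 2392 and 2413 in SKF. The astrocyte markers summed to 520 FPKM in SKF plus JQ1 replicate 5 and 394 in replicate 6. Their part in the low values of that library was not tested. Of the 12 neuronal markers, 3 were called higher and 4 lower with JQ1 alone, beside 28.1% and 28.6% of all genes. When libraries were scaled to the neuronal markers, Ptpn5, Rasgrp2, Gng7, Rgs9 and Arpp21 were called with JQ1 alone in the same directions, and 6 of the 9 genes were called lower with JQ1 added to SKF. That scaling called 6854 of all 13999 genes with JQ1 alone, 3892 of them higher. With JQ1 added to SKF it called 7214, 4453 of them higher.

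**Figure D2:**
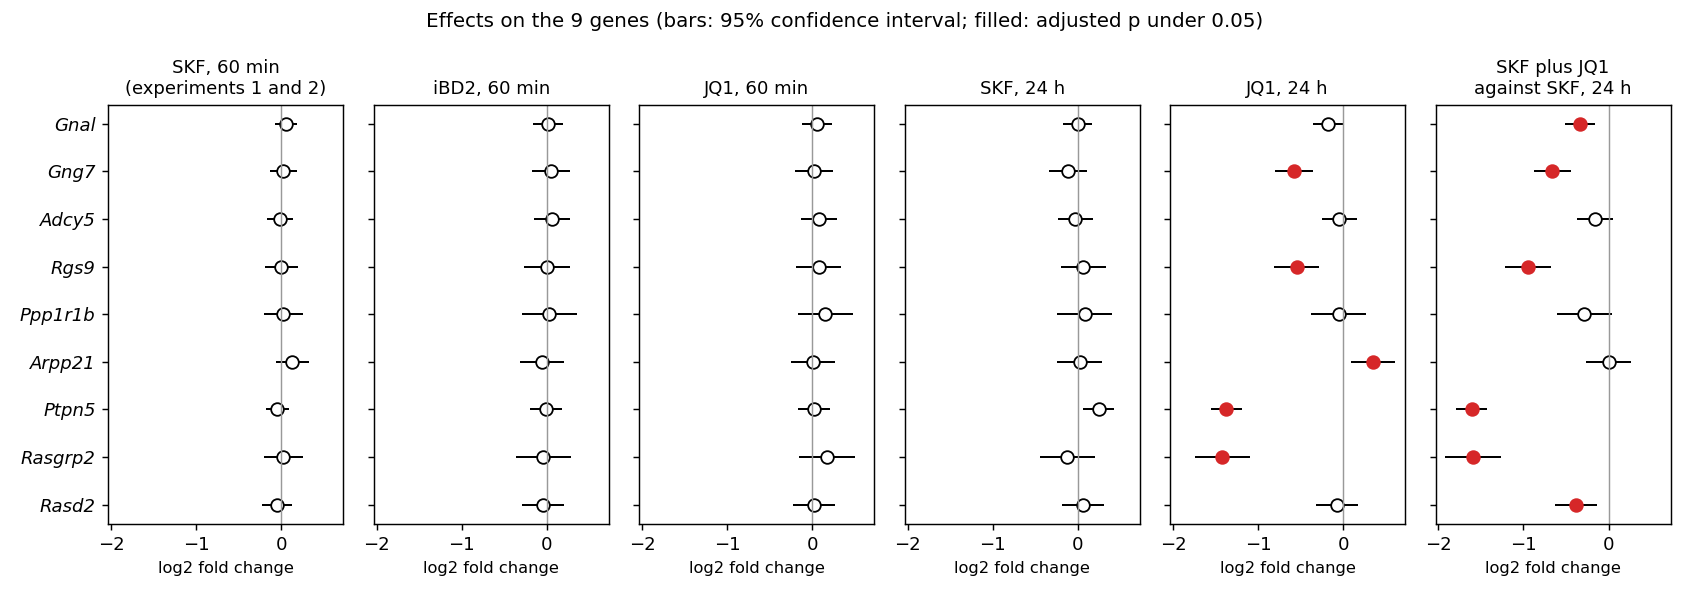
Log2 fold changes (points) with 95% confidence intervals (bars) of the 9 genes in 6 comparisons, with filled points for an adjusted p under 0.05 and a vertical line at 0. All points at 60 min and for SKF at 24 h are open, and Ptpn5 and Rasgrp2 lie near −1.4 with JQ1 alone and −1.6 with JQ1 added to SKF at 24 h.

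Each effect was also set against the other scalings, because calls in both directions were so common. Of all calls with JQ1 alone at 24 h, 49.6% were higher, against 34.3% on FPKM as deposited and 56.8% when libraries were scaled to neuronal markers. With JQ1 added to SKF the shares were 49.2%, 38.1% and 61.7%. The falls of Ptpn5, Rasgrp2, Gng7 and Rgs9 kept their sign and their call under all of these scalings in both comparisons. Across every other alternative and left-out library, Ptpn5 with JQ1 alone ran from −1.47 to −1.28, Rasgrp2 from −1.57 to −1.27, Gng7 from −0.68 to −0.47 and Rgs9 from −0.68 to −0.42, and all stayed called.

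Markers of other cells were also read at 24 h. Of all genes tested, 28.1% were called higher and 28.6% lower with JQ1 alone. With JQ1 added to SKF the shares were 27.7% and 28.7%, and with SKF 1.49% were called in either direction. The summed level of the 10 microglial markers was 47.4 to 59.3 FPKM in DMSO, 7.00 to 10.2 in JQ1, 20.8 to 28.9 in SKF and 0.898 to 1.69 in SKF plus JQ1. All 10 were called lower with JQ1 alone and with JQ1 added to SKF, and 7 were called lower with SKF. The 10 astrocyte markers summed to 416 to 500 FPKM in DMSO, 355 to 417 in JQ1, 399 to 421 in SKF and 394 to 520 in SKF plus JQ1, with 0 called higher and 4 lower with JQ1 alone, and 4 higher and 2 lower with JQ1 added to SKF. Of 15 markers of striatal projection neurons, 4 were called higher and 2 lower with JQ1 alone, and 6 higher and 3 lower with JQ1 added to SKF, counts that were 3 and 3, and 5 and 8, on FPKM as deposited. Of 9 interneuron markers tested, 0 were called higher and 6 lower with JQ1 alone, and 1 higher and 3 lower with JQ1 added to SKF, with sums of 423 to 425 FPKM in DMSO, 388 to 418 in JQ1, 409 to 426 in SKF and 439 to 448 in SKF plus JQ1. Of 5 markers of dividing cells, 3 were called higher with JQ1 alone and 4 with JQ1 added to SKF, and 0 lower in either, with sums of 4.24 to 4.38 FPKM in DMSO, 6.41 to 6.98 in JQ1, 4.12 to 4.55 in SKF and 6.66 to 7.08 in SKF plus JQ1. Of 9 oligodendrocyte lineage markers tested, 3 were called higher and 4 lower with JQ1 alone, and 3 higher and 2 lower with JQ1 added to SKF. The part of these changes in the falls of Ptpn5, Rasgrp2, Gng7 and Rgs9 was not tested.

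The promoters of the 4 genes that fell in both comparisons are printed because these genes moved together, and that of Arpp21 because it rose with JQ1 alone. Promoters here are the 250 bases before to 50 bases after a RefSeq gene start in the build GRCr8, 5′ to 3′ on the strand of the gene, and 8 of the 9 genes matched by symbol, Ppp1r1b being the exception. Capitals mark GC boxes, the letters CCGCCC on either strand, which are bound by Sp family factors, and the E-box CACGTG.
Ptpn5, chr1:106816085-106816384, minus strand: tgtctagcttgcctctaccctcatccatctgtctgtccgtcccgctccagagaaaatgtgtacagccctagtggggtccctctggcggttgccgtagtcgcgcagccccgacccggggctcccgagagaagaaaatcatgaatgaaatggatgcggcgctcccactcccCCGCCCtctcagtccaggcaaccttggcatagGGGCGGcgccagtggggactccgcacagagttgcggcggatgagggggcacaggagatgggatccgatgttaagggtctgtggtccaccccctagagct
Rasgrp2, chr1:213136484-213136783, plus strand: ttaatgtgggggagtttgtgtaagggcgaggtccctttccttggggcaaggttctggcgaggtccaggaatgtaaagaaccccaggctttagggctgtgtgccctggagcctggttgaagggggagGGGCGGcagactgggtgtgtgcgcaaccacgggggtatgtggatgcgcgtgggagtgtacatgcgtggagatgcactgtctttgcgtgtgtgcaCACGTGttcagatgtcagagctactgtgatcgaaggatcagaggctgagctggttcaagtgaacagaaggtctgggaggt
Rgs9, chr10:94770338-94770637, minus strand: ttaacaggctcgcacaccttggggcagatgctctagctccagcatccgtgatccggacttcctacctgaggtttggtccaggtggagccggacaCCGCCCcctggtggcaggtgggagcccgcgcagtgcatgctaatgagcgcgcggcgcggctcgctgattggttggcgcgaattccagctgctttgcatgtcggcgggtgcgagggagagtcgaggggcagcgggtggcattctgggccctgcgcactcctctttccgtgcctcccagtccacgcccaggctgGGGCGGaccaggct
Gng7, chr7:9365139-9365438, plus strand: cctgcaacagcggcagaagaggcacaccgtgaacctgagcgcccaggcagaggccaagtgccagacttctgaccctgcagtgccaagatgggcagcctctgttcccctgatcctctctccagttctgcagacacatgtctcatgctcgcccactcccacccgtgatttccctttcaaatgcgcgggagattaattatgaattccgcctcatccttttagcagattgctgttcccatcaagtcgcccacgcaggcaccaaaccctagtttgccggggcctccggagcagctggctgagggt
Arpp21, chr8:121031308-121031607, minus strand: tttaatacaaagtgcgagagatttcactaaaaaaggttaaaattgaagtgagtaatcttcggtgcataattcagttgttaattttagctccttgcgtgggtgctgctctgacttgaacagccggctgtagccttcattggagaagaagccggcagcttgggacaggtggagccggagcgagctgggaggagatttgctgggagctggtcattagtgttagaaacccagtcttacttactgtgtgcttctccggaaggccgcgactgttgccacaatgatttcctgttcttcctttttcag

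Ptpn5 and Rgs9 each hold 2 GC boxes and Rasgrp2 holds 1, whereas Gng7 and Arpp21 hold none in this window. Of the genes not printed, Adcy5 holds 4, Rasd2 holds 3 and Gnal 0. Among 33469 rat promoters of the same length, 33.1% hold the motif. The E-box occurs in Rasgrp2 alone of the 8, and in 6.42% of all promoters. The cyclic AMP response element TGACGTCA (1.83% of promoters), its shorter form TGACG (21.2%), the AP-1 letters TGANTCA (7.33%) and the TATA letters TATAAA (14.2%) occur in none of the 8, searched on both strands. G and C made up 62.0% of the Ptpn5 window, 57.0% of Rasgrp2, 66.3% of Rgs9, 58.0% of Gng7, 47.0% of Arpp21, 70.7% of Adcy5, 62.3% of Gnal and 77% of Rasd2, against a median of 51.7%. Genes that fell and genes that were not called therefore both occur among the promoters rich in G and C. A match describes these letters only, and its absence says nothing about a factor. Because promoters were matched by gene symbol, the transcript of Arpp21 or Gnal that begins at the start used is not given.

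SKF alone for 24 h called 0 of the 9 genes, beside 1.49% of all genes. At an unadjusted p under 0.05 there was 1, Ptpn5, with 24.1 and 24.5 FPKM in SKF against 19.3 and 21.6 in DMSO (0.25 ± 0.08, adjusted p = 0.212), and limma voom called 0. Rasgrp2 was the lowest at −0.12. Of the 80 pathway partners, 0 were called higher and 1 lower, the Rap exchange factor gene Rasgrp3, whose 0.465 FPKM in DMSO and 0.0907 FPKM in SKF are both below the filter.

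Whether SKF altered the JQ1 effect was tested as the difference between both JQ1 effects. At 24 h it was negative for all 9 genes, from −0.40 for Rgs9 (unadjusted p = 0.0322) to −0.08 for Gng7, with 0 called in limma and 0 in limma voom, beside 0.0429% of all genes called. The count at an unadjusted p under 0.05 was 1. The 95% confidence intervals lay within −0.76 and 0.27. At 60 min it was also negative for all 9, from −0.24 for Arpp21 to −0.02 for Gng7, with 0 called, beside 0.00714% of all genes, 0 in limma voom and 0 at an unadjusted p under 0.05. Of all genes, 52.4% were below 0 at 24 h and 51.0% at 60 min. The 9 values of a time come from the same 8 libraries and are not independent. The lower log2 fold changes of Rgs9, Rasd2 and Ppp1r1b under SKF are therefore not shown to differ from those without SKF. Ppp1r1b was called in neither JQ1 comparison at 24 h, and Rasd2 only with JQ1 added to SKF.

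The JQ1 effect at 24 h was tested against that at 60 min, each relative to its own DMSO. Of the 9 genes, 4 differed, all lower at 24 h, beside 36.6% of all genes called and 19.7% called lower. The difference was −1.59 ± 0.21 for Rasgrp2 (adjusted p = 3e-05) and −1.39 ± 0.12 for Ptpn5 (adjusted p = 2.24e-07). It was −0.63 ± 0.17 for Rgs9 (adjusted p = 0.00901) and −0.60 ± 0.14 for Gng7 (adjusted p = 0.00335). At 60 min these 4 genes had 0.17, 0.02, 0.08 and 0.02. The 5 others were not called, with Arpp21 at 0.34 and Gnal at −0.23 (adjusted p = 0.119 each). Arpp21 was called without DMSO replicate 6 of 24 h (0.49, adjusted p = 0.0401), without either SKF plus JQ1 library of 24 h (0.34, adjusted p = 0.0491 each) and when scaled to neuronal markers (0.44, adjusted p = 0.00258), and Gnal was called on FPKM as deposited (−0.29, adjusted p = 0.0317). Time and experiment cannot be told apart in this comparison, and both effects enter through DMSO groups that the comparisons above also use. The SKF effect at 24 h minus that of experiment 1 ran from −0.08 for Gng7 to 0.24 for Ptpn5, with 0 called, beside 1.29% of all genes, 0 in limma voom and 0 at an unadjusted p under 0.05.

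Of the 9 genes, 7 have 1 annotated transcript in the tables, and Arpp21 and Gnal have 3 each, of which 1 carried most of the signal. For Arpp21 this was a short transcript of 5 exons and 2376 nucleotides, with 88.7% of the FPKM of the gene in DMSO at 24 h. It had 96.7 and 120 FPKM in DMSO and 131 and 156 FPKM in JQ1, 132% of the DMSO mean. The long transcript of 20 exons had 12.6 and 14.3 FPKM in DMSO and 11.9 and 13 FPKM in JQ1, so that the libraries overlapped and the higher value of the gene lay in the short form.

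Under SKF, the long Arpp21 transcript had 15.2 and 15.6 FPKM, and 10.5 and 12 FPKM with JQ1 added, 73.1% of SKF and without overlap. The short form had 110 and 106 FPKM in SKF and 96.1 and 131 FPKM in SKF plus JQ1. Transcripts were described without a test, and their FPKM depend on how StringTie divided reads between forms that share exons. The hairpin of Mir128-2 lies inside Arpp21 on the same strand, at 0 to 0.439 FPKM, under the filter.

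**Figure D3:**
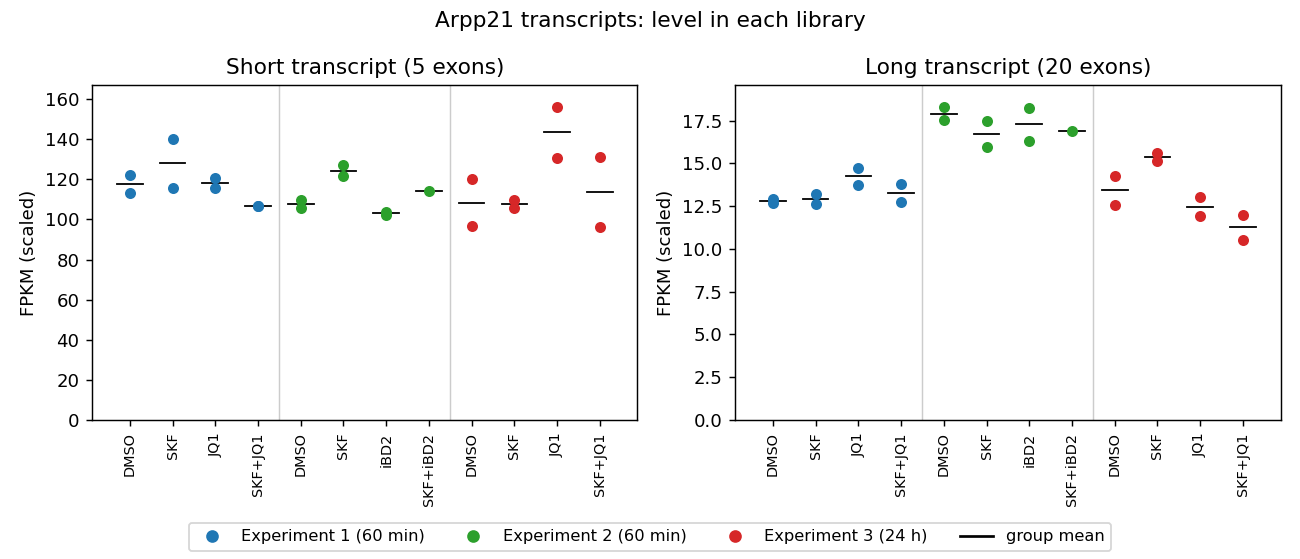
Scaled FPKM (vertical axes, from 0) of the short and the long Arpp21 transcript in each of the 23 libraries (points), by group, with group means as lines and experiments by colour. At 24 h the short form is at 131 and 156 FPKM in JQ1 against 96.7 and 120 in DMSO, while the long form is at 10.5 and 12 in SKF plus JQ1 against 15.2 and 15.6 in SKF.

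For Gnal the main transcript starts inside the span of a longer one and carried 94.1% of the FPKM of the gene in DMSO at 24 h. It had 164 and 184 FPKM in DMSO, 146 and 162 in JQ1, 166 and 175 in SKF, and 128 and 152 in SKF plus JQ1. The longer transcript, which begins upstream, had 11.3 and 10.2 FPKM in DMSO and 8.99 and 11.1 FPKM in JQ1, with overlap. It had 14.5 and 14.5 FPKM in SKF and 5.70 and 9.56 FPKM in SKF plus JQ1, 52.7% of SKF. Both forms thus had lower values in SKF plus JQ1 than in SKF, without overlap.

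The pathway partners at 24 h can be read in the same order as the signal runs. Of 80 tested, 18 were called higher and 29 lower with JQ1 alone (median −0.07), and 15 higher and 40 lower with JQ1 added to SKF (median −0.15), beside 56.7% and 56.4% of all genes called. By direction, 28.1% of all genes were higher and 28.6% lower with JQ1 alone, and 27.7% and 28.7% with JQ1 added to SKF. For the 80 partners, the share called in either direction with JQ1 alone is near the background. On FPKM as deposited the counts were 11 and 41, and 12 and 47. Scaled to neuronal markers they were 20 and 20, and 22 and 26. The calls among all genes moved with the scaling too. On FPKM as deposited, 34.3% of all calls were higher with JQ1 alone and 38.1% with JQ1 added to SKF. Scaled to neuronal markers, the shares were 56.8% and 61.7%. With JQ1 added to SKF, lower calls in the list outnumbered higher ones under each of these scalings, also where most calls among all genes were higher.

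Among 7 receptor genes, 3 were lower with JQ1 alone, Drd1 (13.5 to 6.20 FPKM, −1.07 ± 0.09, adjusted p = 6.94e-08), Adora2a (−0.98 ± 0.11) and Gpr52 (−0.50 ± 0.09), and on FPKM as deposited 5 were. With JQ1 added to SKF all 7 were called lower under each of the 3 scalings. Drd1 went from 13 to 4.82 FPKM (−1.34 ± 0.09, adjusted p = 4.74e-09) and Adora2a, the adenosine receptor of D2-type neurons that also acts through Golf, from 51.5 to 18.8 FPKM (−1.44 ± 0.11, adjusted p = 2.2e-08). Drd2 had −0.12 ± 0.08 with JQ1 alone (adjusted p = 0.19) and −0.28 ± 0.08 with JQ1 added to SKF (adjusted p = 0.00477), a call lost without SKF plus JQ1 replicate 5 (−0.16, adjusted p = 0.112). Without DMSO replicate 5 Drd2 was called with JQ1 alone too (−0.23, adjusted p = 0.0319).

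Of 17 partners among G proteins, chaperones and RGS proteins, 2 were higher and 7 lower with JQ1 alone, and 3 higher and 8 lower with JQ1 added to SKF, where scaling to neuronal markers gave 6 and 6. Beside Gng7, the gamma subunit genes Gng2 (−0.24 ± 0.05), Gng3 (−0.45 ± 0.06) and Gng4 (−0.46 ± 0.11) fell with JQ1 alone, and Gnai1, an inhibitory alpha subunit, rose (0.53 ± 0.05). Of 13 adenylyl cyclases and phosphodiesterases, 1 was higher and 9 lower with JQ1 alone, and 0 higher and 10 lower with JQ1 added to SKF. On FPKM as deposited they were 1 and 10, and 0 and 11, and scaled to neuronal markers 1 and 8, and 1 and 7. Beside Adcy5, which was not called in either, the cyclase genes Adcy2 (−0.49 ± 0.06), Adcy3 (−0.34 ± 0.09) and Adcy6 (−0.38 ± 0.07) fell with JQ1 alone and Adcy9 rose (0.34 ± 0.10). The phosphodiesterase genes Pde1c (−1.05 ± 0.13) and Pde7b (−0.64 ± 0.09) fell most in that list.

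Of 21 genes of protein kinase A and of kinases and phosphatases around DARPP-32, 8 were higher and 3 lower with JQ1 alone, and 5 higher and 5 lower with JQ1 added to SKF. On FPKM as deposited they were 4 and 9, and 4 and 10, and scaled to neuronal markers 9 and 1, and 8 and 0. The direction of this list thus flips with the scaling, and all genes shift the same way. Of all calls, 34.3% were higher on FPKM as deposited and 56.8% when scaled to neuronal markers with JQ1 alone. With JQ1 added to SKF these shares were 38.1% and 61.7%. Ensa, which encodes an inhibitor of protein phosphatase 2A, rose from 49.4 to 78.3 FPKM with JQ1 alone (0.66 ± 0.05, adjusted p = 2.43e-08). With JQ1 added to SKF it rose from 47.3 to 75.8 FPKM (0.68 ± 0.05, adjusted p = 1.72e-08). Of 22 genes of the Ras, Rap and ERK arm, 7 were higher and 7 lower with JQ1 alone, and 7 higher and 10 lower with JQ1 added to SKF. On FPKM as deposited they were 5 and 9, and 6 and 10, and scaled to neuronal markers 7 and 3, and 7 and 6. Mapk3, the substrate kinase ERK1 of the phosphatase encoded by Ptpn5, fell from 59.0 to 30.1 FPKM (−0.96 ± 0.05, adjusted p = 4.18e-10) with JQ1 alone. With JQ1 added to SKF, Mapk3 fell from 60.4 to 31.2 FPKM (−0.94 ± 0.05, adjusted p = 4.58e-10). The upstream kinase gene Map2k2 rose from 40.7 to 59.2 FPKM with JQ1 alone (0.53 ± 0.05, adjusted p = 7.29e-08).

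Close relatives of 2 of the 9 genes were set beside them. Rasgrp1, a Ras exchange factor, had 32.1 FPKM in both DMSO and JQ1 at 24 h (−0.001 ± 0.09, adjusted p = 0.996), where Rasgrp2 fell to 34.4% of DMSO. With JQ1 added to SKF, Rasgrp1 went from 31.8 to 26.9 FPKM (−0.25 ± 0.09, adjusted p = 0.0296), a call lost without SKF replicate 5 (adjusted p = 0.0924), SKF replicate 6 (adjusted p = 0.093) or SKF plus JQ1 replicate 5 (−0.08, adjusted p = 0.492). It was also lost with no filter on low values (adjusted p = 0.0816) and in a fit of experiment 3 alone (adjusted p = 0.111). Rasd1 fell at 24 h, with −0.36 ± 0.12 for JQ1 alone (adjusted p = 0.0149) and −0.69 ± 0.12 for JQ1 added to SKF (adjusted p = 7.88e-05). Rasd2 had −0.07 and −0.38 in these comparisons, and the test of the difference between them gave −0.31 (adjusted p = 0.869). The call of Rasd1 with JQ1 alone was lost without DMSO replicate 5 (adjusted p = 0.0757), without JQ1 replicate 5 (adjusted p = 0.0803) and in a fit of experiment 3 alone (adjusted p = 0.0504).

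**Figure D4:**
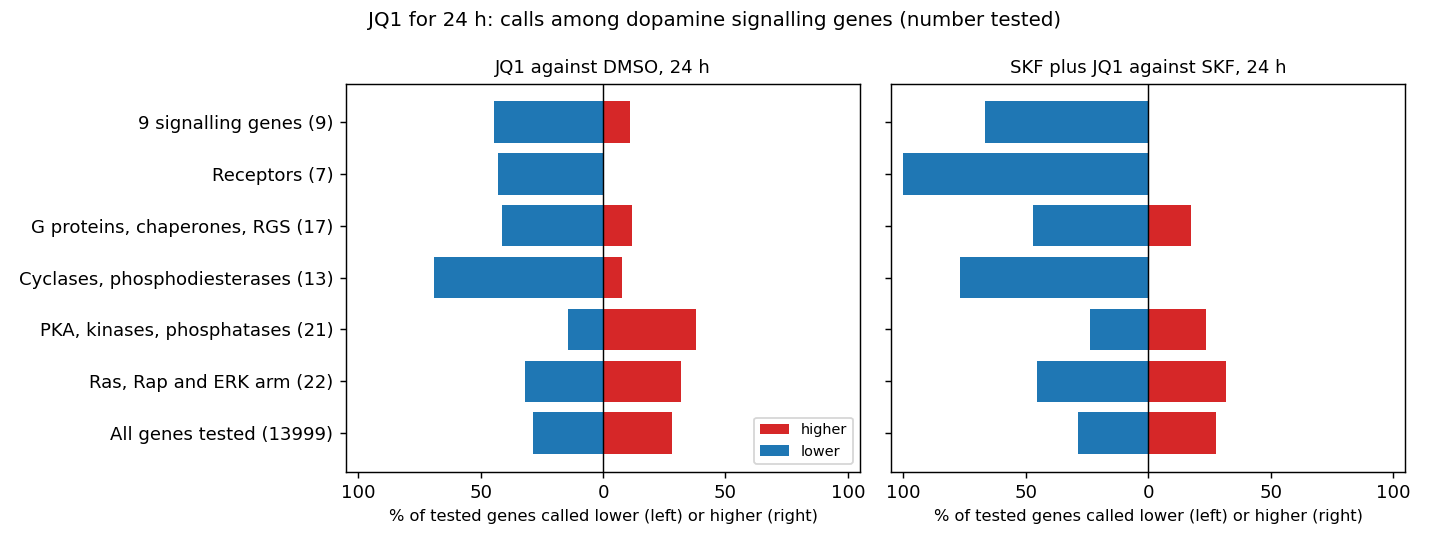
Percent of tested genes called lower (left, blue) and higher (right, red) after 24 h of JQ1, without and with SKF, for the 9 genes, 5 lists of pathway partners (number tested in brackets) and all 13999 genes. Of the 7 receptor genes, 3 are lower with JQ1 alone and 7 with JQ1 added to SKF, and of the 21 genes of the protein kinase A list 8 are higher with JQ1 alone.

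Across the 12 groups, centred within each experiment, the group means of Gng7, Rasgrp2, Rgs9, Ptpn5 and Gnal varied together, with Pearson r from 0.868 (Ptpn5 and Gnal) to 0.984 (Gng7 and Rasgrp2) over the 10 pairs. Arpp21 ran from −0.478 with Ptpn5 to 0.0766 with Rasd2. The 5 other genes whose pattern was most like the mean of the 9, of 12138 compared, were Necab2, a neuronal calcium-binding protein (r = 0.997), Ccn3, a secreted matrix-associated protein (0.996), the uncharacterised LOC102549506 (0.996), Syt7, a calcium sensor of vesicle fusion (0.994), and Gabra5, a GABA-A receptor subunit (0.993). With JQ1 alone at 24 h they had log2 fold changes of −0.85, −1.25, −0.37, −0.58 and −0.69. The points share the 23 libraries, and the lowest values of Gng7, Rasgrp2, Rgs9, Ptpn5 and Gnal were those of the JQ1 and SKF plus JQ1 groups at 24 h.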

How the data were processed

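The deposited files are StringTie tables of 41078 transcripts with FPKM as computed by the authors, and the genome build is Rnor_6.0. Per the submitters' processing notes the tools were STAR, StringTie, Trim Galore, FastQC and DESeq2, without versions. The deposited coverage, the mean read depth over a transcript, gave 4.36 to 14.9 aligned gigabases per library. The use of strand in counting is not given in the sources. The SKF plus iBD2 library of replicate 2 was not used here. FPKM were summed per gene identifier, divided by a median-ratio size factor and taken as log2(FPKM + 0.5), which understates changes of low genes. Genes needed 0.5 FPKM in 2 libraries and a transcript of at least 200 nucleotides. One linear model with a mean per group was fitted to 23 libraries (limma 3.58.1 under R 4.3.3, robust, with an intensity trend). It left 11 residual degrees of freedom, and all groups share its spread, so that the lone library is assumed to vary like the others. Contrasts were tested on both sides and adjusted over all genes (Benjamini-Hochberg), with a call at an adjusted p under 0.05. The script was tested on simulated data. The members, the lists and the tests were chosen with earlier results of these data known. All 9 genes are named. The rule for partners was the 4 called genes of smallest p per comparison, Drd1, Drd2, Rasd1 and Rasgrp1, but not each of them is given for every comparison. Other called partners that are named were chosen after their values were seen. Of 85 listed partners 82 were matched and 80 tested. Alternatives were FPKM as deposited, scaling to neuronal markers, pseudocounts of 0.1 and 1, no filter, a replicate block, single experiments, the highest transcript per gene, limma voom on fragments of 202 bases derived from the coverage, and omission of each library.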

Additional observations from a re-analysis of the deposited data

Results flagged for a closer look

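For 4 of the 9 genes the JQ1 effect differed between 24 h and 60 min in limma, by a test of the difference itself. In this test 36.6% of all genes were called, and 19.7% were called lower. The difference was −1.593 for Rasgrp2, −1.391 for Ptpn5, −0.6254 for Rgs9 and −0.5978 for Gng7 on the log2 scale. These times come from separate experiments, so time and experiment cannot be told apart.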

How the results depend on the processing

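The 41 gene results at 24 h gave 1312 alternative values, of which 1258 kept direction and side of the threshold, 15 lost the call, 20 gained it and 19 changed sign. All sign changes were of values that were not called. Scaled to neuronal markers, JQ1 alone at 24 h gave 0.01301 for Ppp1r1b, 0.01482 for Adcy5 and 0.0604 for Rasgrp1, and the change of the JQ1 effect with time was 0.00472 for Rasd2. With limma voom Rasgrp1 had 0.000212 with JQ1 alone and Arpp21 −0.01664 with JQ1 added to SKF, where FPKM as deposited gave Arpp21 −0.06811. With a library left out, JQ1 alone gave −0.2011 to 0.1042 for Ppp1r1b, −0.1598 to 0.06771 for Adcy5, −0.1887 to 0.05562 for Rasd2 and −0.1089 to 0.1078 for Rasgrp1. With JQ1 added to SKF, leaving out a library gave −0.5705 to 0.0029 for Ppp1r1b and −0.2081 to 0.211 for Arpp21, and the change with time ran from −0.2126 to 0.0317 for Rasd2. The cause of these changes was not tested. Fitting single experiments gave 1 call among the 9 for SKF at 60 min in experiment 2, where the fit to all libraries gave 0. That gene was Arpp21, whose log2 fold change was 0.17 in both fits. Its standard error was 0.034 in the fit of experiment 2 alone. In the fit to all libraries the median standard error of the 9 genes was 0.111. Over all alternatives the 9 genes gave 4 to 6 calls with JQ1 alone, 5 to 8 with JQ1 added to SKF and 4 to 6 for the change with time. The main fit called 56.7%, 56.4% and 36.6% of all genes in these 3 comparisons. For each group of 2 libraries, the log2 difference between its libraries was taken for every gene. Between groups of an experiment, these differences correlated across genes at −0.267 to 0.372 over 15 pairs of groups. The replicate numbers were therefore not taken as pairs. With the replicate block, 6 of the 9 genes were called with JQ1 alone at 24 h, 7 with JQ1 added to SKF and 6 for the change with time. Of all 13999 genes, the block called 8106, 8055 and 5357, where the main fit called 7932, 7897 and 5126. Among the 9 genes, the calls the block added were Gnal with JQ1 alone (adjusted p = 0.0196) and Ppp1r1b with JQ1 added to SKF (adjusted p = 0.0288). For the change with time it added Gnal (adjusted p = 0.0423) and Arpp21 (adjusted p = 0.0407). Groups of 2 libraries limit all intervals given.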
